A study of Mus musculus with 6 samples.

Results

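The mitochondrial carriers of the SLC25 family were read in epididymal white adipose tissue of mice with 1 copy of the ldi allele of Pparg. All genes that the platform annotation names as Slc25a followed by a number, alone on their probe set, were taken, which gave 44 of the 18193 genes read on the array. Choice of members used the gene name and no measured value, though earlier results of these data were known when the family was chosen. Carriers that the annotation gives no symbol of their own are not analysed here. Of the 44, 34 were bright enough to be tested, and the mean of each genotype lay above the filter for all 34 of them (0 with a mean below it). The other 10 are described by their signals only.

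SLC25 proteins sit mostly in the inner mitochondrial membrane, which is closed to charged metabolites, and exchange a substrate on the one side for another on the other side. Their cargo ties the citrate cycle, fatty acid oxidation and ATP synthesis to the cytosol. In a white adipocyte, export of citrate and malate carries carbon for fatty acid synthesis, the carnitine carrier brings in acyl groups for oxidation, and the uncoupling protein of brown fat, Ucp1, is a relative. PPARG, the product of Pparg, is the nuclear receptor that drives adipocyte differentiation.

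The mutant animals were male Pparg ldi/+ mice, 10 weeks old, of mixed C57BL6;129Sv background (3 arrays), and the animals set against them were litter-matched WT males of the same age and background (3 arrays). The labels tie ldi to lipodystrophy and do not describe the change in the allele. RNA of 1 mouse went on each Affymetrix MOE430v2.0 array, and the whole fat pad was used, with all its cell types. In such a tissue, fewer cells of a type and less RNA per cell cannot be told apart. Signals are given after scaling each array to a common trimmed mean. Differences run Pparg ldi/+ minus WT and were taken after adding 32 to each signal and going to log2, so those of dim genes come out too small. Rose and fell mean an adjusted p under 0.05 in limma, fitted on all genes tested.

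Pparg had signals of 1738, 1715 and 1906 in Pparg ldi/+ fat, against 4395, 4458 and 5015 in WT fat, and it fell 2.56-fold (log2 difference -1.36, SE 0.084, limma adjusted p = 1.06e-05). Whether its probes lie outside the ldi change is not known here. Markers of several cell types differed between the genotypes. For comparison, 16.2% of all genes tested rose and 16.3% fell. All 18 macrophage markers rose, and their summed signal was 133237 to 135685 in Pparg ldi/+ fat, against 48917 to 64030.4 in WT fat. Of 11 adipocyte markers 9 fell (Fabp4 and Lpl did not pass), with sums of 124110 to 135483 in Pparg ldi/+ fat, against 204542 to 227431 in WT fat. Epididymal epithelium markers, 12 of them on the array and 4 of 7 tested higher by the test, summed to 23460 and 32132 on Pparg ldi/+ arrays 1 and 2 and to 876 on array 3, against 718 to 1575 on WT arrays. Germ cell markers summed to 5699 on Pparg ldi/+ array 2 and to 227 to 769 on the other 5 arrays. The skeletal muscle list was 3034 on WT array 1 and 1228 to 2004 elsewhere, and its difference between genotypes did not pass for either tested member. Of 7 thermogenic adipocyte markers tested, 2 rose and 1 fell. Their list summed to 5001 to 5266 in Pparg ldi/+ fat, against 2520 to 4102 in WT fat. The part of these cells in the carriers' differences was not tested, and values with Pparg ldi/+ array 3 alone are given below.

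Of the 34 carriers tested, 8 rose and 7 fell, together 44.1% (15 of 34), where 32.5% of all 11269 genes tested were called (16.2% rose and 16.3% fell). Among the 4249 genes at least as bright as the median carrier, 41.8% were called. The 44.1% also covers the carriers dimmer than that median, so these shares are not matched for brightness. The median log2 difference of the 34 was 0.03, beside -0.00 for all genes tested. At an adjusted p under 0.01 in limma, 2 rose and 5 fell, where 19.6% of all genes were called. The genotypes did not overlap for 22 of the 34 (64.7%), against 47.5% of all genes tested. These 2 shares are not matched for brightness either, and only 37.7% of genes tested were brighter than the median carrier. The summed signal of the 44 carriers was 83610 to 85595 on Pparg ldi/+ arrays and 82209 to 87323 on WT arrays, so the ranges overlapped. Called carriers went both ways, and apart from Slc25a23 every called difference was under 1 in size on the log2 scale. An exact permutation test of any 1 gene cannot go below p = 0.1 (two-sided) with 3 arrays against 3, so the calls rest on the fit across all genes.

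**Figure D1:**
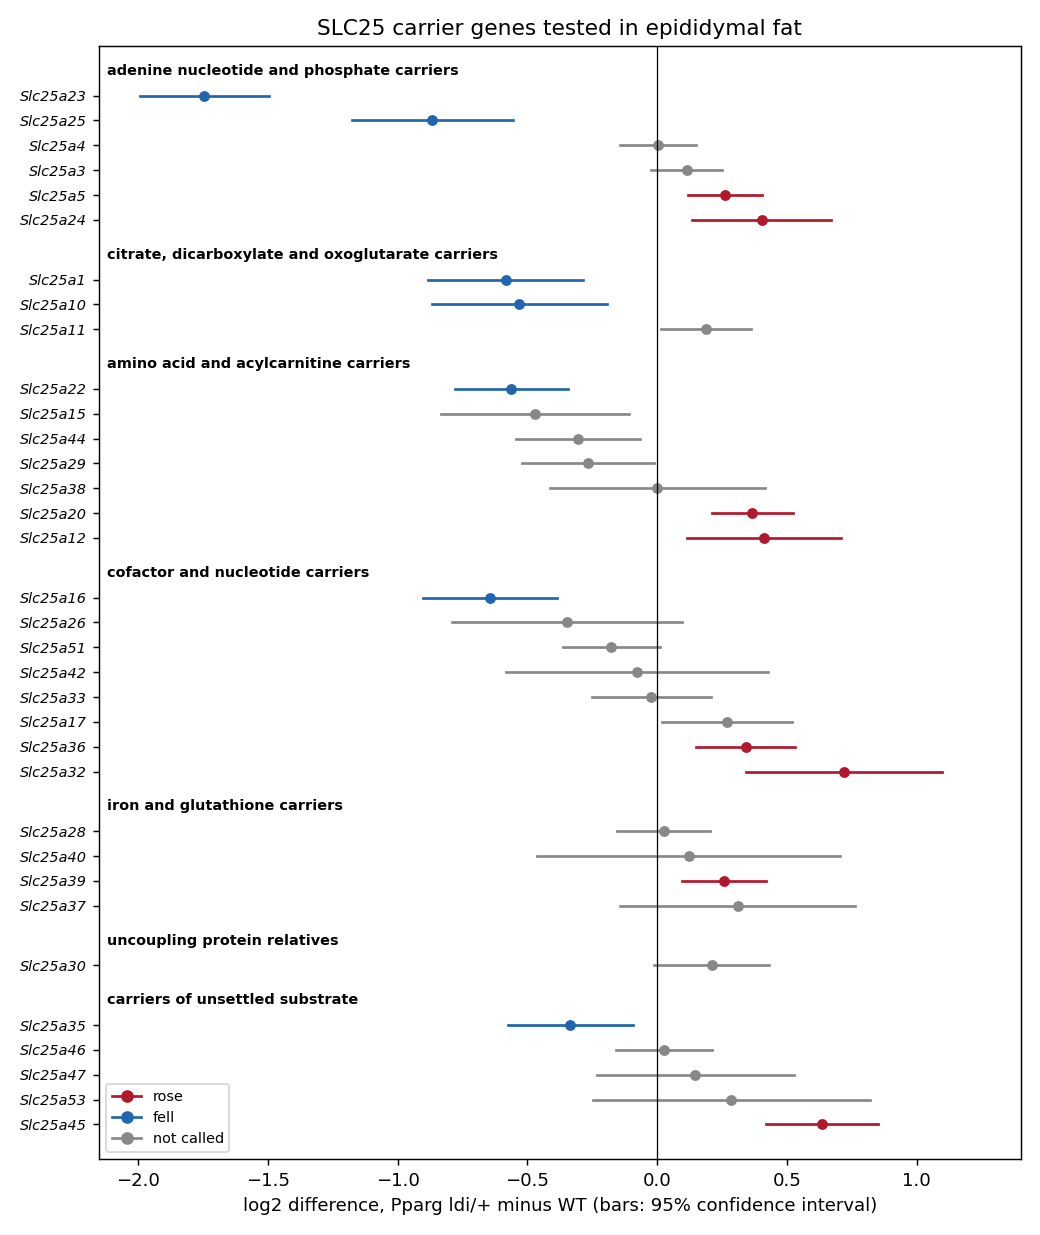
Log2 difference (Pparg ldi/+ minus WT, horizontal axis) of the 34 carriers tested, grouped by cargo, with the 95% confidence interval from limma. Red marks the 8 that rose, blue the 7 that fell and grey those not called; Slc25a23 lies farthest from 0, at -1.74.

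The carriers of adenine nucleotides and phosphate held both the steepest fall and calls in the other direction. Of 6 tested, 2 rose and 2 fell, where 16.2% of all genes rose and 16.3% fell. Slc25a23, Slc25a24 and Slc25a25 are close relatives that exchange ATP-magnesium for phosphate, are switched on by calcium and set the adenine nucleotide pool of the matrix. Their RefSeq promoter windows (GRCm38.p6, 300 bases around the start of transcription) are shown because the 3 relatives moved in opposite directions. Capitals mark matches, on either strand, to the CCAAT box (CCAAT), the E-box (CACGTG) or the cAMP response element (TGACGTCA).
Slc25a23 (chr17:57059793-57060092, minus strand): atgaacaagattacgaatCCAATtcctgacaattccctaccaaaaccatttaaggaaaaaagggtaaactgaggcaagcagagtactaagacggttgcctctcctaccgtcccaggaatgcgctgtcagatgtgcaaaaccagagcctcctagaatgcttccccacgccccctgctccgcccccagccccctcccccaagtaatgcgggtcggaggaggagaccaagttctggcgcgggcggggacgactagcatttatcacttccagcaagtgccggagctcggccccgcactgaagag
Slc25a25 (chr2:32424017-32424316, minus strand): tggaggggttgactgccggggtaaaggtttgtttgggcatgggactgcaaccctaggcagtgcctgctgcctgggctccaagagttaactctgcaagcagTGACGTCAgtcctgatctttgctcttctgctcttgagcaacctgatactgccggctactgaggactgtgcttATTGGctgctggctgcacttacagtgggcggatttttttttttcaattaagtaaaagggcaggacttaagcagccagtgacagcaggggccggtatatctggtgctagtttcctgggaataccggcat
Slc25a24 (chr3:109122899-109123198, plus strand): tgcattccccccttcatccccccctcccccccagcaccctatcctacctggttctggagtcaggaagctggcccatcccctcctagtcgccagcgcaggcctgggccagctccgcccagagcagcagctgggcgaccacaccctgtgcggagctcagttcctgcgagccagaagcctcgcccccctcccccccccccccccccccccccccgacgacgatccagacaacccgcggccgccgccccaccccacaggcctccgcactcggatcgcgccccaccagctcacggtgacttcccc
A CCAAT box, found in windows of 42.3% of all protein-coding genes, stands in those of Slc25a23 and Slc25a25, and a cAMP response element in that of Slc25a25, while none of these letters stand in the window of Slc25a24. Among the called carriers, a CCAAT box stands in windows of Slc25a1, Slc25a10, Slc25a22, Slc25a23 and Slc25a25, which fell. Of those that rose, only Slc25a36 has this box, and its window holds all 3 motifs. Windows of Slc25a16, which fell, and of Slc25a5, Slc25a12, Slc25a20, Slc25a24, Slc25a39 and Slc25a45, which rose, hold none of the 3. Slc25a32 and Slc25a35 have no window. Slc25a22, Slc25a23 and Slc25a25 have several windows each, and in Slc25a22 only 1 of them holds the box. No called carrier that rose has more than 1 window, so the chances of a match differ between the directions. A link of the letters to the direction was not tested. For Slc25a25 the table lists 3 starts, and the window shown is the only 1 of them with that element.

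Signals of Slc25a23 were 474, 414 and 429.6 in Pparg ldi/+ fat, against 1558, 1385 and 1708 in WT fat. The brightest Pparg ldi/+ array was far below the dimmest WT array. Slc25a23 fell 3.35-fold (log2 difference -1.74, SE 0.109, limma adjusted p = 1.12e-05, 95% interval -1.99 to -1.50).

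Slc25a25 had signals of 704, 738 and 711 in Pparg ldi/+ fat, against 1184, 1670.1 and 1199.8 in WT fat, so the Pparg ldi/+ arrays lay close together and WT array 2 stood above the other WT arrays. It fell 1.82-fold (log2 difference -0.87, SE 0.136, limma adjusted p = 0.00153), and by 0.71 without WT array 2. A dimmer probe set of the gene differed by -0.07, with overlapping genotypes, and the mean of its probe sets gave -0.36, which did not pass (limma adjusted p = 0.283).

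Slc25a24, in contrast, had signals of 1774, 1611 and 1884 in Pparg ldi/+ fat, against 1251, 1550.4 and 1179.6 in WT fat, and the lowest Pparg ldi/+ array lay just above the highest WT array. It rose 1.32-fold (log2 difference 0.40, SE 0.117, limma adjusted p = 0.0294), and its other probe set above the filter differed by 0.45. The call ended without Pparg ldi/+ array 1 (0.39) or array 3 (0.35), and without WT array 1 (0.37) or array 3 (0.32). It also ended with no intensity trend in the variance (limma adjusted p = 0.0515).

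The ADP/ATP carriers swap matrix ATP for cytosolic ADP. Slc25a5, the form of many growing tissues, had signals of 10611, 11002 and 10677 in Pparg ldi/+ fat, against 9395, 8988 and 8581 in WT fat. It rose 1.2-fold (log2 difference 0.26, SE 0.063, limma adjusted p = 0.0128), and all 8 of its probe sets pointed the same way, at 0.22 to 0.41. The probe set read for it can cross-hybridise by its suffix; with such sets left out the difference was 0.34. The call ended without Pparg ldi/+ array 2 (0.24) and with no intensity trend in the variance (limma adjusted p = 0.055).

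Slc25a4, the form abundant in heart and muscle, had 7714, 8322 and 8441 in Pparg ldi/+ fat, against 8183, 8234 and 7957 in WT fat. The genotypes overlapped and the difference of 0.01 did not pass (95% interval -0.14 to 0.15, limma adjusted p = 0.96). Slc25a3, which carries phosphate for ATP synthesis, had 13180.4, 13099.6 and 13028 in Pparg ldi/+ fat, against 12151, 12647 and 11561 in WT fat. Every Pparg ldi/+ array lay above every WT array, yet the difference was small and not called (log2 difference 0.11, SE 0.060, limma adjusted p = 0.191). Slc25a31, the ADP/ATP carrier of male germ cells, and Slc25a41, a short relative of Slc25a23, were below the filter. On Pparg ldi/+ array 2, where germ cell markers were high, Slc25a31 had a signal of 28.3, within its range of 14.3 to 75.6 over the 6 arrays.

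**Figure D2:**
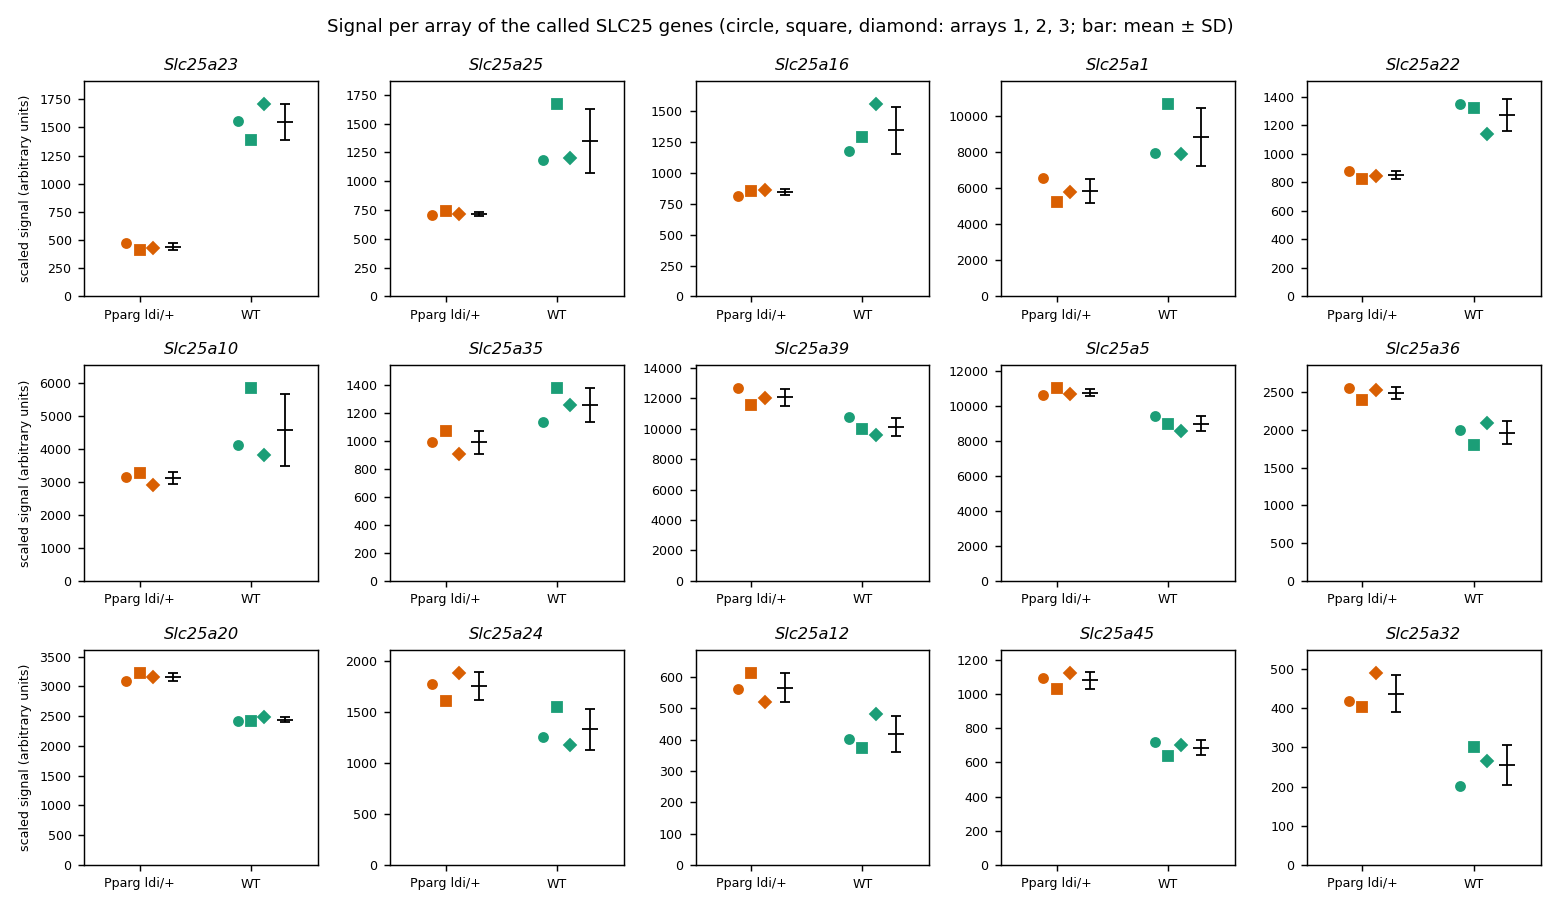
Scaled signal (vertical axis, arbitrary units, from 0) of the 15 called carriers on each array, Pparg ldi/+ left and WT right, with the mean ± SD of the 3 arrays beside each group; each panel has its own scale. No panel shows an overlap of the genotypes, and WT array 2 (square) stands well above the other WT arrays for Slc25a1, Slc25a10 and Slc25a25.

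Both carriers that hand citrate and malate to the cytosol fell, where 16.3% of all genes fell. Slc25a1, the citrate carrier, supplies the carbon that ATP-citrate lyase turns into acetyl-CoA for fatty acid synthesis. Its signals were 6556, 5209.5 and 5812 in Pparg ldi/+ fat, against 7982, 10672 and 7875 in WT fat. WT array 2 was the highest of all, and the genotypes did not overlap. It fell 1.5-fold (log2 difference -0.58, SE 0.131, limma adjusted p = 0.00936), and by 0.44 without WT array 2. The RefSeq window of its promoter is shown because this carrier stands at the start of lipogenesis, and it holds 2 CCAAT boxes and an E-box.
Slc25a1 (chr16:17928170-17928469, minus strand): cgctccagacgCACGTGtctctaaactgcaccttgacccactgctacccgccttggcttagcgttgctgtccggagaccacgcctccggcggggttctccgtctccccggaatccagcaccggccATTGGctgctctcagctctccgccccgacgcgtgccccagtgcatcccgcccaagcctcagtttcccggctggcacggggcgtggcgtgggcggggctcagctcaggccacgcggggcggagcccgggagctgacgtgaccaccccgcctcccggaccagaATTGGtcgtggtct

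Slc25a10, the dicarboxylate carrier, exchanges malate or succinate for phosphate. It had 3147, 3276 and 2904 in Pparg ldi/+ fat, against 4109.6, 5829.8 and 3799.8 in WT fat, again with WT array 2 well above the others. Slc25a10 fell 1.44-fold (log2 difference -0.53, SE 0.148, limma adjusted p = 0.0243), its other probe set differed by -0.57, and without WT array 2 the difference was -0.34. Leaving out Pparg ldi/+ array 1 (-0.54) or array 3 (-0.48) ended the call, and it also ended with no intensity trend in the variance (limma adjusted p = 0.0501). Slc25a11, the oxoglutarate-malate carrier, averaged 2578 ± 97.9 in Pparg ldi/+ fat and 2262 ± 114 in WT fat (SD, n = 3 each) and did not pass (log2 difference 0.19, SE 0.076, limma adjusted p = 0.0943).

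Among 7 carriers of amino acids and acylcarnitine, 2 rose and 1 fell, where 16.2% of all genes rose and 16.3% fell. Slc25a20, which brings acylcarnitines into the matrix for oxidation and returns carnitine, had signals of 3090.3, 3231 and 3155 in Pparg ldi/+ fat, against 2422, 2411 and 2491 in WT fat. Every Pparg ldi/+ array stood clear of WT. It rose 1.29-fold (log2 difference 0.37, SE 0.068, limma adjusted p = 0.0035), with 0.44 for its other probe set.

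Slc25a12, the aspartate-glutamate carrier of the malate-aspartate shuttle, had 561, 614 and 521 in Pparg ldi/+ fat, against 402, 372 and 481 in WT fat. Pparg ldi/+ array 3 and WT array 3 lay close to each other, and the others apart. It rose 1.33-fold (log2 difference 0.41, SE 0.130, limma adjusted p = 0.0396), but the call ended without any 1 of the Pparg ldi/+ arrays and without WT array 1 or 2, at 0.34 to 0.47. Averaging its probe sets (0.32) ended it too, as happened when dim genes were tested too (limma adjusted p = 0.0689). Its close relative Slc25a13 (citrin) was below the filter.

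Slc25a22, a glutamate carrier, had 878, 822 and 845 in Pparg ldi/+ fat, against 1349, 1319 and 1142 in WT fat, with no overlap. It fell 1.48-fold (log2 difference -0.56, SE 0.096, limma adjusted p = 0.00234). Of the members that did not pass, Slc25a15, the ornithine carrier of the urea cycle, was at -0.47 (limma adjusted p = 0.051), Slc25a44, the branched-chain amino acid carrier known from brown fat, at -0.30 (limma adjusted p = 0.0556), and Slc25a29, a carrier of basic amino acids, at -0.27. In each of these 3 the genotypes did not overlap on the probe set read, and Slc25a44 passed without WT array 1 (-0.37). The other probe set of Slc25a29 above the filter differed by -0.10, with overlap. Of its probe sets below the filter, 1 differed by -1.27 without overlap, and the others by 0.22 and -0.21 with overlap. Slc25a38, the glycine carrier of haem synthesis, was at 0.00 with a wide interval of -0.41 to 0.41. For Slc25a44 another probe set differed by 0.04 where the remaining 2 gave -0.30 and -0.35. Slc25a2 and Slc25a18 were below the filter.

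Carriers of cofactors and nucleotides went both ways: of 8 tested, 2 rose and 1 fell, where 16.2% of all genes rose and 16.3% fell. Slc25a32, which takes folate and FAD into mitochondria, had 417, 404 and 491 in Pparg ldi/+ fat, against 201, 301 and 264 in WT fat. All Pparg ldi/+ arrays lay above all WT arrays. Slc25a32 rose 1.65-fold (log2 difference 0.72, SE 0.166, limma adjusted p = 0.0106), the furthest of the 8 that rose. Its other 2 probe sets above the filter differed by 0.49 and 0.26.

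Slc25a36, a pyrimidine nucleotide carrier, had 2551, 2403 and 2525 in Pparg ldi/+ fat, against 2004, 1796 and 2092 in WT fat. It rose 1.27-fold (log2 difference 0.34, SE 0.083, limma adjusted p = 0.0137). The call ended without Pparg ldi/+ array 1 (0.32) and with the mean of its probe sets (0.29). Its relative Slc25a33 was at -0.02 (95% interval -0.25 to 0.21).

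Slc25a16, which has been linked to coenzyme A uptake, had 815, 858 and 860.5 in Pparg ldi/+ fat, against 1182, 1295 and 1559.6 in WT fat. WT array 3 was the brightest, and the Pparg ldi/+ arrays differed little among themselves. It fell 1.56-fold (log2 difference -0.64, SE 0.113, limma adjusted p = 0.00268). Slc25a42, the better known coenzyme A carrier, ranged from 903 to 1230.1 in Pparg ldi/+ fat and from 799 to 1522 in WT fat, and its difference of -0.08 had an interval of -0.58 to 0.43. The remaining members were Slc25a17, the peroxisomal cofactor carrier, at 0.27, Slc25a51, the NAD carrier, at -0.18, and Slc25a26, the S-adenosylmethionine carrier, at -0.35. None of these 3 passed. Slc25a26 passed without WT array 2 (-0.55).

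Of the 4 carriers of iron and glutathione, 1 rose and 0 fell, where 16.2% of all genes rose and 16.3% fell. Slc25a39, which imports glutathione, had 12666, 11545 and 12056 in Pparg ldi/+ fat, against 10773, 9999 and 9564 in WT fat. It rose 1.2-fold (log2 difference 0.26, SE 0.070, limma adjusted p = 0.0221), and its other 3 probe sets above the filter gave 0.38 to 0.41. The probe set read may cross-hybridise too, and with such sets left out the difference was 0.41. Its call ended without Pparg ldi/+ array 1 (0.22) or array 3 (0.26), and without WT array 2 (0.25). It also ended with no intensity trend in the variance (limma adjusted p = 0.0731) and when dim genes were tested too (limma adjusted p = 0.052). The paralogue Slc25a40 was at 0.12, with Pparg ldi/+ signals spread from 232 to 499. The mitoferrins Slc25a37 and Slc25a28, which carry iron for haem and iron-sulphur clusters, were at 0.31 and 0.03, and neither passed.

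Some carriers have no settled cargo, and others resemble the uncoupling proteins. Of 5 tested that have no settled cargo, 1 rose and 1 fell, where 16.2% of all genes rose and 16.3% fell. Slc25a45 had 1091, 1027 and 1125 in Pparg ldi/+ fat, against 722, 636 and 699 in WT fat, with the groups far apart relative to their spread. It rose 1.55-fold (log2 difference 0.63, SE 0.094, limma adjusted p = 0.00117). Slc25a35 averaged 988 ± 82.0 in Pparg ldi/+ fat and 1255 ± 119.8 in WT fat (SD, n = 3 each) and fell 1.26-fold (log2 difference -0.33, SE 0.105, limma adjusted p = 0.0399). Its call ended without Pparg ldi/+ array 1 (-0.34) or array 3 (-0.28), without WT array 2 (-0.27) or array 3 (-0.33), and with unscaled values (-0.27). It also ended with no intensity trend in the variance (limma adjusted p = 0.058) and when dim genes were tested too (limma adjusted p = 0.0543). Slc25a46, an outer membrane protein of mitochondrial shape, was at 0.03, Slc25a47, known from liver, at 0.15, and Slc25a53 at 0.29.

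Slc25a30, a relative of the uncoupling proteins, was the only 1 of 3 such genes above the filter. It averaged 995 ± 40.6 in Pparg ldi/+ fat and 857 ± 73.8 in WT fat (SD, n = 3 each), without overlap, and did not pass (log2 difference 0.21, SE 0.097, limma adjusted p = 0.134). Slc25a14 and Slc25a27 were below the filter, as were Slc25a34, Slc25a48 and Slc25a54. The signals of all 10 untested members lay between 11.0 and 220.0 on the 6 arrays. Among these dim genes, Slc25a48 had 71.3, 84.7 and 78.8 in Pparg ldi/+ fat, against 24.0, 62.4 and 48.4 in WT fat, without overlap. Its other probe sets, dimmer still, differed by -0.29 and 0.03, with overlap. The share of all untested genes without overlap was not counted.

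Related carriers that go by other names gave 1 call in 4, where 32.5% of all genes were called. Ucp3, an uncoupling protein relative best known from muscle, had 437, 428 and 471 in Pparg ldi/+ fat, against 972, 623 and 711 in WT fat, and it fell (log2 difference -0.72, SE 0.159, limma adjusted p = 0.0084). Mtch1, Mtch2 and the pyruvate carrier subunit gene Mpc1 were at -0.15, -0.02 and 0.03, and none passed. Ucp1, the proton leak of thermogenic fat, was below the filter, with 309, 128 and 120.0 in Pparg ldi/+ fat, against 10.5, 56.3 and 6.40 in WT fat.

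Where a carrier had several probe sets, they mostly went one way. Of 16 carriers with 2 or more probe sets above the filter, 13 had all of them on the same side of 0, and these included all 8 called carriers among the 16. The other 7 called carriers had only 1 such probe set.

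**Figure D3:**
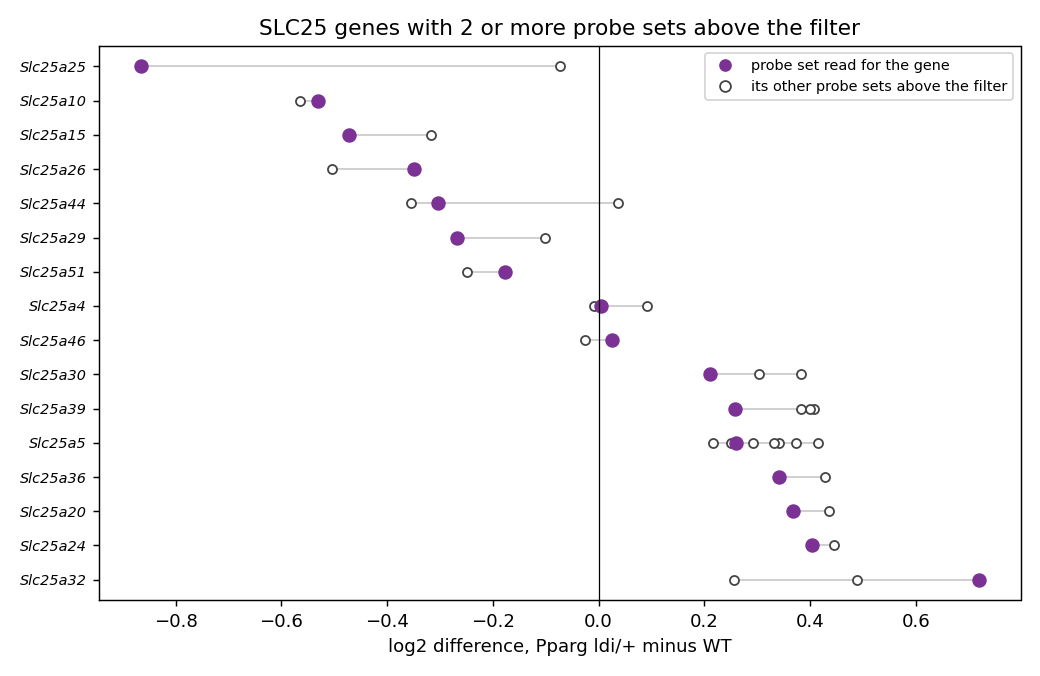
Log2 difference (Pparg ldi/+ minus WT, horizontal axis) of every probe set above the filter for the 16 carriers with 2 or more, the filled point being the one read for the gene. The 2 probe sets of Slc25a25 lie at -0.87 and -0.07, the widest gap.

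The routes that the carriers serve were read beside them, from a list of 42 enzymes of which 32 were tested. Of these, 7 rose and 14 fell, with a median of -0.15, where 16.2% of all genes rose and 16.3% fell. On the citrate route, Slc25a1 and Slc25a10 fell together with Me1, which makes NADPH from malate (-1.15, limma adjusted p = 0.000303), Pcx, which refills the citrate cycle (-0.82, limma adjusted p = 3.20e-05), and the citrate synthase gene Cs (-0.27). Acly, which splits the exported citrate, rose (0.50, limma adjusted p = 0.0269).

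On the carnitine route, Slc25a20 rose, as did Cpt1a, which makes acylcarnitine at the outer membrane (0.96, limma adjusted p = 7.30e-05). Cpt2, which takes the acyl group off again in the matrix, fell (-0.35), and so did the acetylcarnitine enzyme gene Crat (-0.42). Along the malate-aspartate shuttle, Slc25a12 and the cytosolic transaminase gene Got1 rose. Got1 had signals of 921, 858 and 977 in Pparg ldi/+ fat, against 226, 194 and 312 in WT fat (log2 difference 1.80, SE 0.162, limma adjusted p = 7.46e-05). Mdh1, the cytosolic malate dehydrogenase gene of the same shuttle, fell (-0.34), while the matrix enzymes Mdh2 and Got2 were at -0.16 and 0.23 and did not pass.

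On the folate route, Slc25a32 rose together with Shmt2 (0.58, limma adjusted p = 0.00258) and Mthfd2 (0.54, limma adjusted p = 0.0375), which handle folate-bound carbon in the matrix. Coenzyme A synthesis begins with pantothenate kinases. Pank3 had 2348, 2719 and 2202 in Pparg ldi/+ fat, against 7913, 10249 and 8170.3 in WT fat, and fell with Slc25a16 (log2 difference -1.84, SE 0.118, limma adjusted p = 1.25e-05), while its relative Pank1 was at 0.12 (limma adjusted p = 0.741) and Coasy, the last enzyme, at 0.08, and neither passed. Next to the glutathione carrier Slc25a39, Gss, glutathione synthetase, rose (1.30, limma adjusted p = 0.000198), and Gclc and Gclm, which encode the ligase before it, were at -0.37 and 0.13, not called.

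Slc25a22 fell alongside the glutamate dehydrogenase gene Glud1 (-0.35, limma adjusted p = 0.00442). The enzymes behind Slc25a44, Bcat2, Bckdha, Bckdhb and Dbt, all fell, at -0.70, -0.32, -0.84 and -0.35. For iron, Iscu, the scaffold of iron-sulphur clusters, and Alas1, the start of haem synthesis, fell (-0.35 and -0.30), while Fech and both mitoferrins did not pass. The ATP synthase genes Atp5a1, Atp5b and Atp5c1, which use the cargo of Slc25a3 and the ADP/ATP carriers, were at 0.04, -0.11 and -0.05, none called.

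**Figure D4:**
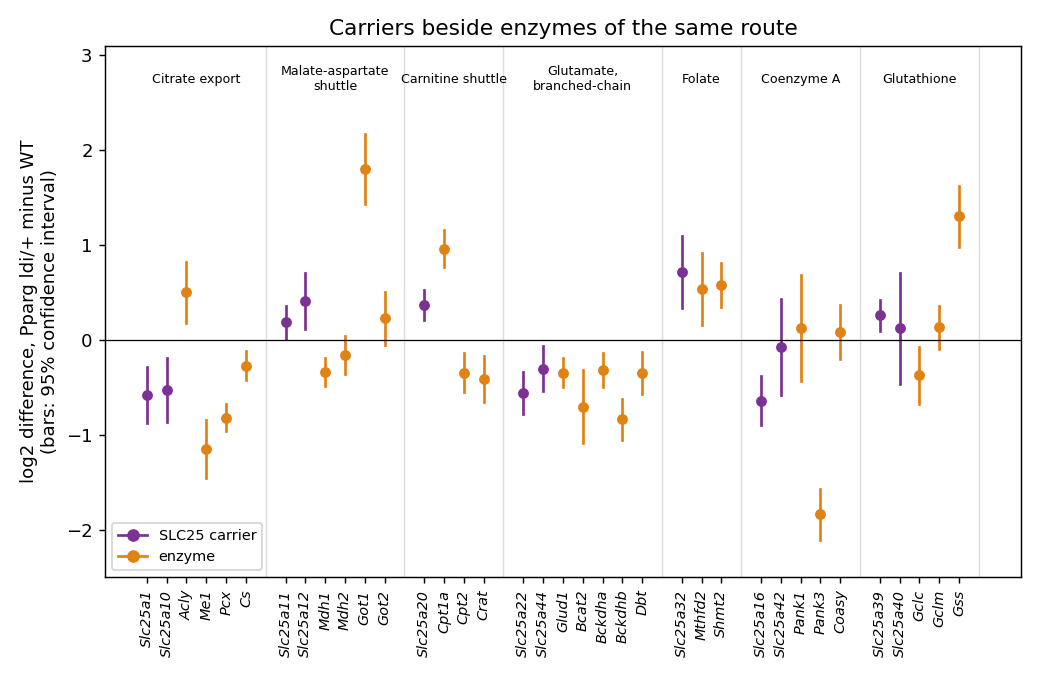
Log2 difference (Pparg ldi/+ minus WT, vertical axis) with the 95% confidence interval, for carriers (purple) and enzymes (orange) of the same route. Slc25a20 and Cpt1a lie above 0 and Cpt2 and Crat below it, and the 3 folate genes all lie above 0.

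Few of the general mitochondrial genes were called. Of 28 such genes (pores, import machinery, chaperones, fusion proteins and regulators of biogenesis), 2 rose and 3 fell, with a median of -0.05, against 15 calls among 34 carriers and 32.5% of all genes. The difference between these shares was not tested. Vdac2 and Tomm20, an outer membrane pore and an import receptor, rose (0.28 and 0.33), while Mfn2, a fusion protein, fell (-0.95, limma adjusted p = 5.34e-05), as did Hspd1 (-0.27) and Polg (-0.31). The summed signal of the list was 84971 to 86784 in Pparg ldi/+ fat and 81704 to 88176 in WT fat, and the ranges overlapped.

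Of the 44 carriers 34 have a window in the RefSeq table, and some have several. CCAAT boxes stand in windows of 18 of the 34 (52.9%), against 42.3% of 17492 protein-coding genes, and E-boxes in those of 7 (20.6%), against 8.91%. The cAMP response element stands in those of Slc25a25 and Slc25a36, 5.88% of the 34, against 2.54% of all. The direct repeat of nuclear receptors to which PPARG binds with its partner, the oestrogen-related receptor site (TCAAGGTCA) and the NRF1 site were each found in 0 of the 34, and in 0.0572%, 0.377% and 1.47% of all genes. Both strands were read, and these matches describe letters, not binding.

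Because arrays 1 and 2 of Pparg ldi/+ carried epididymal transcripts, the comparison was repeated without them. With array 3 left, 1 carrier rose and 2 fell, with 14.4% of all genes called. These were Slc25a45 at 0.69 (limma adjusted p = 0.0337), Slc25a23 at -1.77 (limma adjusted p = 0.00102) and Slc25a25 at -0.88 (limma adjusted p = 0.0391). The lone array is assumed to vary like the WT arrays in that fit.

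The other 12 called carriers kept their direction with array 3 alone and did not pass (limma adjusted p = 0.0613 to 0.417). Those that fell with all arrays were at -0.59 for Slc25a1, -0.63 for Slc25a10, -0.62 for Slc25a16, -0.57 for Slc25a22 and -0.45 for Slc25a35. Those that rose were at 0.88 for Slc25a32, 0.51 for Slc25a24, 0.37 for Slc25a20, 0.36 for Slc25a36, 0.31 for Slc25a12, 0.25 for Slc25a39 and 0.25 for Slc25a5. For Slc25a20 the difference with array 3 alone equalled that with all 3 arrays to 2 decimals (0.37), while for Slc25a12 it was smaller (0.31, against 0.41 with all 3 arrays).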

How the data were processed

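The deposited values are linear signal intensities made with MAS5, per the submitters' processing notes, which name it for 2 of the 6 samples; version, scaling and detection calls are not stated there. Values of each array were multiplied to a trimmed mean of 500 (2% trimmed at each end), and log2(signal + 32) was taken. Of 45101 probe sets, 34945 had 1 platform symbol, 932 several and 9160 none, and 64 were controls. Symbols were updated by gene number for 34741 (RefSeq, GRCm38.p6). Each gene was read from its probe set of highest mean, and genes below the median of all probe sets (log2 7.47) were not tested. limma 3.58.1 (R 4.3.3; lmFit, eBayes with intensity trend, two-sided, no covariates) gave p-values, adjusted by Benjamini-Hochberg over 11269 genes. The code was tested on simulated data.

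The members, lists and alternatives were chosen with earlier results of these data known. All carriers are named, with values per array for the 6 largest called differences in each direction and for the 3 of highest signal. Other genes with values per array, and most named enzymes, were picked once their values had been seen. The number of arrays limits the precision. Sample titles gave the groups and replicate numbers. Deviations of same-numbered arrays correlated at -0.126, -0.0888 and -0.0944 across genes, which gave no sign of pairing by number. Which mice shared a litter is not known here, and replicate numbers need not follow litters, so these correlations cannot exclude pairs by litter.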

Additional observations from a re-analysis of the deposited data

How the results depend on the processing

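Of 20 alternatives, each kept the direction of every called carrier it tested; Slc25a32 was tested in 19, being left out with the brighter 30% of probe sets. Over the 676 combinations of a tested carrier and an alternative, 616 stayed on the same side of the threshold with the call unchanged, 55 lost a call, 5 gained one and 0 reversed a called difference, while 19 values of carriers not called had the other sign. The 5 gained were Slc25a15 and Slc25a44 (2 each) and Slc25a26. Of the 34 carriers, Slc25a23 and Slc25a45 kept their calls throughout, while those of Slc25a12 and Slc25a35 ended in 10 alternatives each. The number that rose, 8 with all arrays, was 5 with no intensity trend, 2 at a threshold of 0.01 (where 19.6% of all genes were called) and 1 with Pparg ldi/+ array 3 alone, and the number that fell, 7 with all arrays, was 2 there. Leaving out 1 array gave 4 to 7 that rose, 5 to 8 that fell and 2720 to 3350 genes called in all. The count of all genes called, 3661, was 2210 at the threshold of 0.01 and 1619 with array 3 alone. With no intensity trend, Slc25a5, Slc25a10, Slc25a24, Slc25a35 and Slc25a39 lost their calls. The stricter threshold lowers counts by construction; for the other settings the cause was not tested. With the title number as a replicate block 6 carriers rose and 6 fell, and 3147 genes were called in all. The correlations given above gave no sign of pairing by number and cannot exclude pairs by litter. Without detection calls, the 10 dim carriers could not be judged.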
